A study of Danio rerio with 4 samples.

Results

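The male brain transcriptome was compared between atrn-/- and wild type zebrafish. The comparison used 2 of the 4 libraries of the study, 1 of male atrn-/- brain and 1 of male wild type brain, both chosen by the sex and genotype in the labels, and the corresponding 2 female libraries were set beside them. All fish were 4 months post fertilization. The mutants were homozygous for a small CRISPR/Cas9 deletion in an exon of atrn that is predicted to truncate the protein, and the methods name the single line atrnnju70. The wild type fish carried no edited allele and no fish received a treatment. The labels speak of brains in the plural, the methods describe RNA from a single brain and the study's results speak of several brains per group, so the number of fish behind each library is not settled. With 1 library per side there is no replicate check, no p-value is given, and the difference between genotypes cannot be told apart from the difference between these fish or these dissections.

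Attractin is a large glycoprotein with a CUB domain, kelch repeats and EGF-like domains. It has membrane-bound and secreted forms in humans, whereas in zebrafish, by the study's account, it has a transmembrane form only. In mice it is the product of the mahogany locus and is needed for agouti protein to act on the melanocortin receptor of pigment cells. In rats and mice its loss leads to vacuoles and thin myelin in the brain. The gene lists below therefore include melanocortin and myelin genes beside cell type markers and metabolic pathways.

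Each value is a ratio of CPM, the counts of a gene scaled to a common library total, between the mutant and the wild type, on the log2 scale after 2 counts were added on average, so that 1 stands for 2-fold higher in the mutant and -1 for 2-fold lower. Brackets hold the 95% exact interval of the ratio, which covers counting error only. The male libraries held 16100263 counts (wild type) and 16254750 counts (mutant), the female libraries 8654693 and 13116358, so raw counts of the male libraries can be compared almost directly. Of 31030 genes, 19943 passed a filter of 10 counts on average per library and were compared. Their median log2 ratio was -0.007. In the male mutant 544 genes (2.73%) were at least 2-fold higher and 478 (2.4%) at least 2-fold lower, while 1503 (7.54%) were at least 1.5-fold higher and 1400 (7.02%) at least 1.5-fold lower. The counting interval lay wholly above 0 for 4047 genes (20.3%) and wholly below 0 for 4248 (21.3%), so an interval that leaves out 0 was common in these data. Predicted or clone-named genes made up 271 of the 544 higher genes (49.8%) and 281 of the 478 lower genes (58.8%), against 30.3% of all genes compared.

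**Figure D1:**
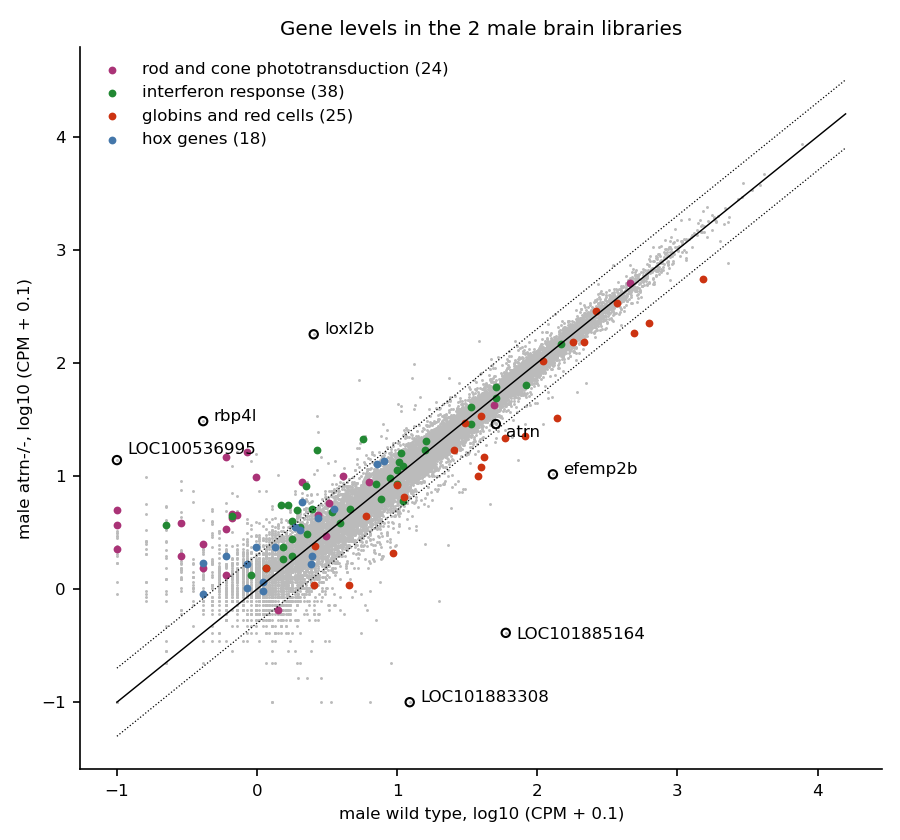
Level of each compared gene in the male wild type (horizontal) and male atrn-/- library (vertical), as log10 of CPM plus 0.1; the solid line marks equal levels, the dotted lines 2-fold, and 4 gene lists are coloured. Most phototransduction genes lie above the upper line, the globins lie below the lower line, and loxl2b, rbp4l, efemp2b and LOC101885164 lie far from the diagonal.

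Transcripts of atrn itself were counted 808 times in the wild type male library and 462 times in the mutant one, with a ratio of -0.81 [-0.99, -0.65]. In the females they were counted 662 and 423 times. Both mutant libraries were below both wild type libraries, with 28.7 and 32.3 CPM against 50.5 and 75.4 CPM. Reads from atrn were thus still counted in both mutants, and the counts do not show whether protein was made. The 100 compared genes nearest to atrn, 50 on each side, were taken in the order of the RefSeq annotation (assembly GRCz12tu). Only genes matched by name could be used. Of the 100, 3 were at least 2-fold higher in the male mutant (slc39a8, eif4eb and tlr4ba) and 0 were at least 2-fold lower. These numbers were near the shares of all genes, 2.73% and 2.4%, and the median was 0.04. The related atrnl1b, an attractin-like gene, had 2830 and 2956 counts. The E3 ligases mgrn1a and mgrn1b, homologues of the mouse mahoganoid gene, had ratios of 0.15 [0.03, 0.28] and -0.15 [-0.23, -0.08].

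Many genes of light detection were higher in the male mutant. Photoreceptors convert light into an electrical signal by an opsin that activates transducin, which in turn activates a cyclic GMP phosphodiesterase. In zebrafish these proteins are made both in the retina and in the pineal organ on top of the brain, whose photoreceptors use extra-ocular rhodopsin and make melatonin. Of 24 compared rod and cone phototransduction genes, 17 were at least 2-fold higher and 1 was at least 2-fold lower. The shares of all genes were 2.73% and 2.4%. Of those 24 genes, 8 passed the count filter only through the male mutant library, so their being higher follows in part from the filter. The median was 2.44, or 2.77 with counts under 3 set to 3, against -0.007 for all genes. Without the filter it was 1.33, and among genes averaging 50 counts 1.27. The other 24 of the 48 listed genes in the table did not pass, and 10 of them had 3 or fewer counts in both male libraries.

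The rod transducin subunits gnat1 and gngt1 had 8 and 12 wild type counts and 235 and 261 mutant counts. Their ratios were 4.51 [3.86, 6.09] and 4.18 [3.60, 5.4]. In the females gnat1 had 17 and 87 counts. Red cone opsin opn1lw1 was counted 0 times in the wild type male library and 79 times in the mutant one, at least 26.1-fold higher when the wild type is set to 3 counts, and its counts in the females were 0 and 34. The cone transducin subunit gngt2a had 0 and 58 counts, at least 19.2-fold higher. Every one of these genes was lower in both wild type libraries than in both mutant libraries. Of them, opn1lw1 and gngt2a passed the filter only through the male mutant library, so their being higher follows in part from the filter. The most abundant member, gnb1b, a G protein subunit made in many tissues, had 7347 and 8229 counts, a ratio of 0.15 [0.11, 0.20].

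Some genes of the pineal organ followed the same order. Extra-ocular rhodopsin, exorh, had 201 wild type and 1187 mutant counts, a ratio of 2.54 [2.33, 2.77], and 97 and 494 counts in the females. The methyltransferase asmt, which makes melatonin in the last step of its synthesis, had 9 and 112 counts, a ratio of 3.32 [2.65, 4.79]. Parapinopsin b, parapinopsinb, a pineal opsin, had 8 and 92 counts, a ratio of 3.17 [2.47, 4.77]. In the females asmt had 8 and 33 counts and parapinopsinb 10 and 25. The female interval of parapinopsinb, from -0.36 to 1.97, took in 0. In the males the pineal acetyltransferase aanat2, named after its values were seen, had 41 and 110 counts, whereas the retinal aanat1 had 46 and 41. Of the 21 compared genes of this list 7 were at least 2-fold higher and 0 lower, against 2.73% and 2.4% of all genes. The list median was 0.31. The filter was passed by 1 of the 21 only through the male mutant library. Other members stayed near 0, such as otx2, which has wide expression in brain, with 1172 and 1177 counts. The second methyltransferase gene asmt2 was also level with 287 and 297 counts, and the homeobox gene bsx had 79 and 62.

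Among 22 photoreceptor structure, visual cycle and transcription genes, 8 were at least 2-fold higher and 0 lower, against 2.73% and 2.4% of all genes. However, 4 of the 22 passed the filter only through the male mutant library. The median was 0.59, and it turned to -0.0387 among genes averaging 50 counts. The retinol dehydrogenase rdh5 had 2 wild type and 52 mutant counts, with an interval of the ratio from 2.76 to 7.77. It passed the filter only through the male mutant library. The visual cycle acyltransferase lrata had 6 and 80 counts, and rdh8b, another retinol dehydrogenase, had 38 and 26. rbp4l, annotated as retinol binding protein 4, like, had the third highest ratio of all compared genes: it had 5 and 490 counts, a ratio of 6.05 [5.37, 8.23], and 25 and 114 counts in the females. LOC792903, annotated as recoverin-like, had 41 and 540 counts, a ratio of 3.63 [3.25, 4.2].

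Genes listed as markers of the rest of the eye were set beside these values. Rhodopsin, rho, had 3 and 4 counts, the ultraviolet cone opsin opn1sw1 was at 0 in both, and the lens crystallin cryaa was at 0 in both. The second red cone opsin opn1lw2 had 3 and 30 counts, and 0 and 15 in the females. It passed the filter only through the male mutant library. Among the other cone opsins opn1sw2 had 2 and 5 counts, opn1mw1 had 0 and 2, and opn1mw2 had 0 and 3. Both opn1mw3 and opn1mw4 were at 0. The 5 compared lens crystallins summed to 12.1 and 10.8 CPM. The 16 compared genes of the inner retina and Muller glia summed to 487 and 477 CPM, and 0 of them were 2-fold higher or lower. The inner retina and Muller glia sums are far above the 14.6 CPM of gnat1 in the male mutant, and the lens sums are below it. Brain cells can also express genes of the inner retina list, such as gnao1b and isl1. Its sums in brain libraries therefore do not measure retina. Whether any retina stayed with the brains was not tested. In whole tissue, more cells of a type and more RNA per cell cannot be told apart, and how much of the pineal organ stayed with each brain at dissection is not given in the sources used here.

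**Figure D2:**
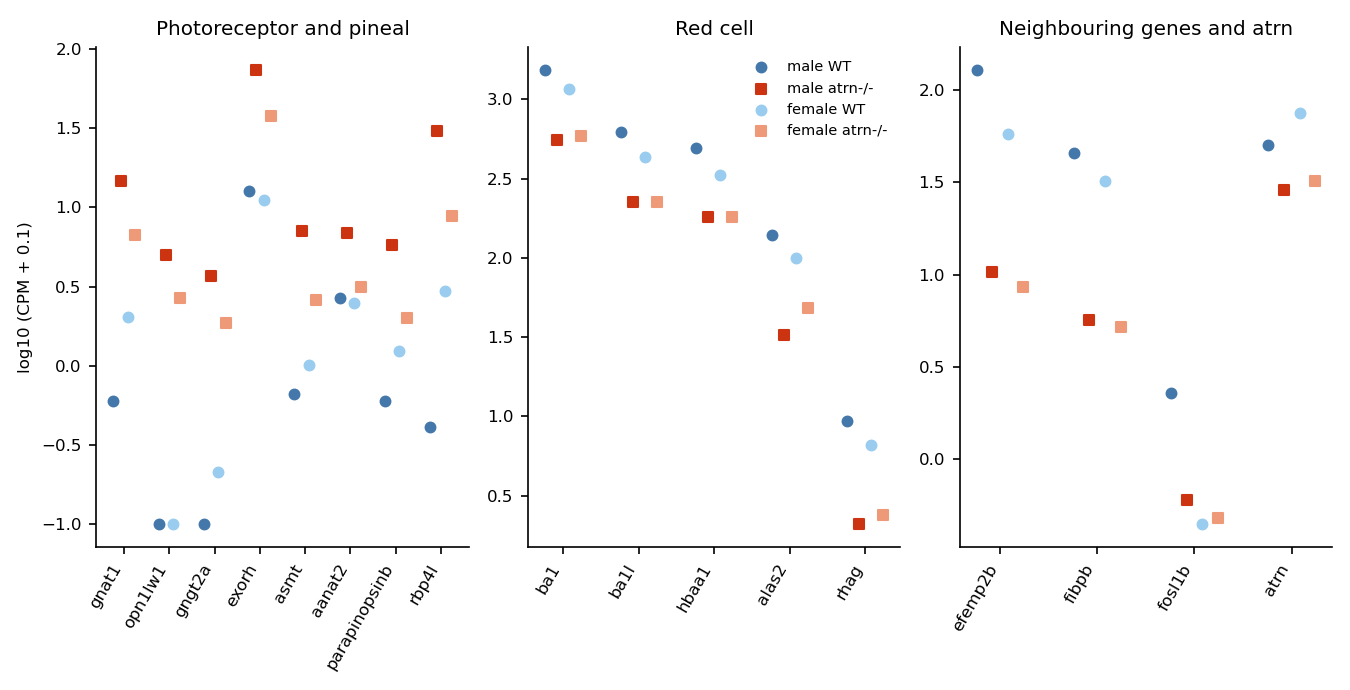
Level of photoreceptor and pineal genes (left), red cell genes (middle) and atrn with a run of neighbouring genes (right) in each of the 4 libraries, as log10 of CPM plus 0.1; each symbol is 1 library, and a gene at 0 lies at -1. All 8 photoreceptor and pineal genes were highest in the male mutant, and all 5 red cell genes were lower in both mutants than in both wild types. Of the 8, opn1lw1 and gngt2a passed the count filter only through the male mutant.

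Several interferon-induced genes were higher in the male mutant. Interferons signal through STAT transcription factors and switch on antiviral proteins such as ISG15, viperin and the Mx GTPases. Of 38 compared genes of the response 10 were at least 2-fold higher and 0 lower, with a median of 0.36, against 2.73% and 2.4% of all genes. The ubiquitin-like modifier isg15 had 41 wild type and 270 mutant counts, a ratio of 2.64 [2.23, 3.22]. In the females it had 28 and 46 counts, a ratio of 0.13. mxa had 2 and 58 counts in the males and 5 and 7 in the females. Named after their values were seen, viperin (rsad2) had 90 and 337 counts in the males against 66 and 80 in the females, and mxc had 9 and 69 against 6 and 11. Of the 38 genes 3, mxa and mxc among them, passed the filter only through the male mutant library. In isg15, mxa, rsad2 and mxc the male mutant library was the highest, and the other 3 lay well below it. LOC100334604, annotated as C-X-C motif chemokine 11-like, had 1 and 89 counts, with an interval from 3.95 to 11.78, and 4 and 1 counts in the females. It too passed the filter only through the male mutant library.

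The rest of the interferon list was not uniform. The RNA-editing enzyme adar had 2344 and 2359 counts, stat2 had a ratio of 0.26 [0.12, 0.39], and the ubiquitin ligase trim25 and the guanylate-binding gbp3 were lower at -0.39 [-0.51, -0.27] and -0.86 [-1.25, -0.51]. The median of the same 38 genes in the females was -0.02. The male mutant held the highest CPM of the 4 libraries for 24 of the 38 genes, compared with 4250 of all 19943.

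Some genes of other immune lists were higher in the male mutant. Of 29 microglia and macrophage genes, which mark the resident phagocytes of the brain, 4 were at least 2-fold higher and 0 lower, with a median of 0.44. The lectin-binding protein gene lgals3bpb had 360 and 732 counts and the lectin gene lgals9l1 had 188 and 410, while the leukocyte phosphatase ptprc had 373 and 402. The male wild type was the lowest of the 4 libraries for 16 of the 29 genes, and the summed level was 297 CPM there, 385 CPM in the male mutant and 390 and 378 CPM in the females. Of 15 complement genes 2 were at least 2-fold higher and 0 lower, with a median of 0.50. The terminal complement component c7a had 133 and 408 counts in the males, a ratio of 1.59 [1.32, 1.90], and 377 and 298 counts in the females. Of 17 genes of antigen presentation 1 was at least 2-fold higher: mhc2dab, a class II chain, with 122 and 359 counts, against 414 and 284 in the females. The class I gene mhc1zba had 1276 and 918 counts in the males and 1290 and 62 in the females. Of 27 cytokines and chemokines 1 was at least 2-fold higher, ccl19a.1, with 21 and 56 counts. Over all genes 2.73% were at least 2-fold higher and 2.4% at least 2-fold lower. The lists of antigen presentation and of cytokines and chemokines, with 1 such gene each, were thus close to the background. Their medians were 0.06 and 0.13. Ratios were above 0 for 9 and below 0 for 8 of the 17, and above 0 for 15 and below 0 for 12 of the 27. Ratios were below 0 for 7 of the 29 microglia and macrophage genes and 4 of the 15 complement genes. Among these were spi1b with 58 and 36 counts and c8b with 170 and 88.

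Red cell genes were lower in the male mutant. Adult globins carry oxygen in red blood cells, alas2 makes the first intermediate of heme in these cells, and fish red cells keep a nucleus. Of 25 compared genes 12 were at least 2-fold lower and 0 higher, with a median of -0.77, against 2.4% and 2.73% of all genes. The beta globins ba1 and ba1l had 24543 and 9976 wild type counts and 8894 and 3604 mutant counts, with ratios of -1.48 [-1.51, -1.44] and -1.48 [-1.54, -1.43]. The alpha globin hbaa1 had 7854 and 2930 counts. alas2 had 2219 and 527 counts, a ratio of -2.08 [-2.23, -1.95], and the ammonium channel rhag had 148 and 32. Members that brain cells also use, such as epb41a and ank1b, had ratios of -0.14 and 0.11. The list summed to 4327 CPM in wild type and 2203 CPM in mutant males, against 3523 and 2303 CPM in the females, and the female median was -0.82.

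Muscle genes were lower as well. Of 46 compared genes 11 were at least 2-fold lower and 1 was at least 2-fold higher, against 2.4% and 2.73% of all genes. The male median was -0.50 and the female median -2.32. The summed level was 1335 and 1074 CPM in the male libraries, 8226 CPM in the female wild type and 1754 CPM in the female mutant. The calcium buffer pvalb1 had 385 and 83 counts in the males. Fast-muscle actn3b ran the other way with 85 and 311. The part of attached muscle or blood in other results was not tested.

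**Figure D3:**
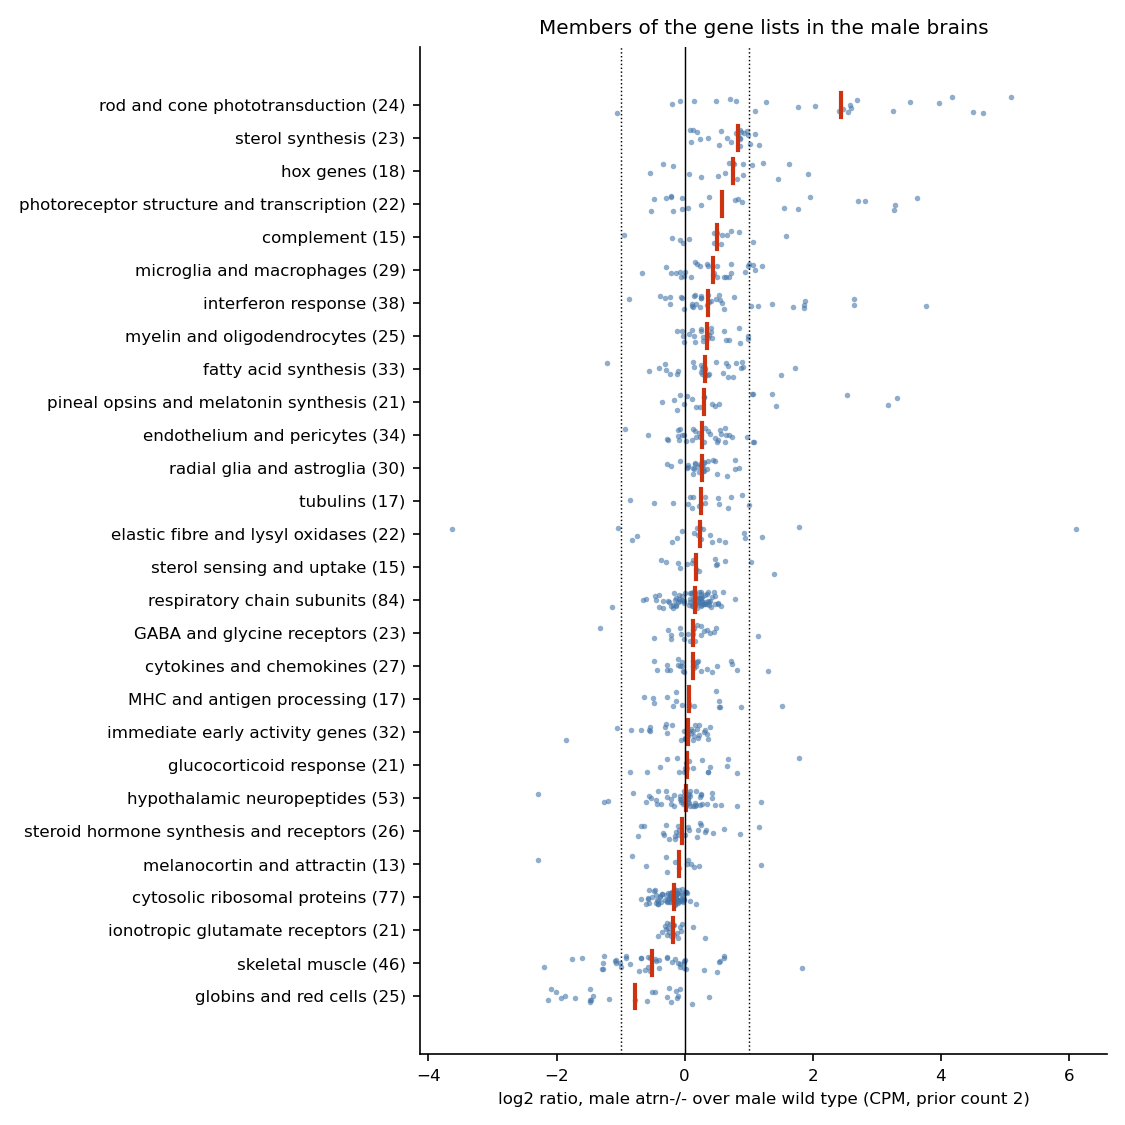
Log2 ratio of every compared member (points) of the gene lists in the male mutant over the male wild type, with the number of members in brackets, the list median as a red bar, and dotted lines at 2-fold. Phototransduction has the highest median, 2.44 (1.33 without the count filter, which 8 of the 24 genes passed only through the male mutant), and globins and red cells the lowest, -0.77.

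Sterol synthesis, which turns acetyl-CoA into cholesterol, was higher as a whole pathway: all 23 compared genes had ratios above 0. Of them 15 were at least 1.5-fold higher and 3 at least 2-fold higher, against 7.54% and 2.73% of all genes. The male median was 0.84 and the female median 0.39. cyp51, the lanosterol demethylase, had 1113 and 2519 counts with an interval from 1.06 to 1.27, and hsd17b7, a ketosteroid reductase of the pathway, had 463 and 737 counts, a ratio of 0.66 [0.49, 0.83]. The second copies of 2 enzymes had smaller ratios, with hmgcrb at 0.11 [-0.04, 0.25] against hmgcra at 0.87 [0.76, 0.99]. Among genes of sterol sensing and transport, insig1, which holds the sterol sensor in the endoplasmic reticulum, had 1689 and 2359 counts. The cholesterol exporters abca1a and abcg1 were lower at -0.29 [-0.38, -0.20] and -0.38 [-0.74, -0.02]. The transcription factor gene srebf2 was level with 2051 and 2117 counts.

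Fatty acid synthesis, elongation and binding followed to a smaller extent. Of 33 genes 11 were at least 1.5-fold higher and 1 at least 1.5-fold lower, against 7.54% and 7.02% of all genes. The list median was 0.32. Fatty acid synthase, fasn, had 4539 and 6934 counts, a ratio of 0.60 [0.55, 0.65], and the brain-type binding protein fabp7b had 84 and 285, a ratio of 1.72 [1.4, 2.12]. The abundant desaturase scdb had 8656 and 8098 counts. Malic enzyme me1 was lower with 33 and 13, but passed the filter only through the male wild type library.

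Myelin genes, made by oligodendrocytes that wrap axons, were higher by moderate amounts. Of 25 compared genes 21 had ratios above 0, with a median of 0.35. At least 1.5-fold higher were 7 and at least 1.5-fold lower 0, against 7.54% and 7.02% of all genes. Myelin basic protein mbpa, the most abundant, had 124201 and 139031 counts, a ratio of 0.15 [0.14, 0.16]. The proteolipid gene plp1b had 19240 and 29837, a ratio of 0.62 [0.60, 0.65], and the myelin claudin cldnk had 1137 and 2287, a ratio close to 1. The median in the females was -0.08. For 17 of the 25 genes the male wild type was the lowest of the 4 libraries, and the summed level was 11210 CPM there, 13530 CPM in the male mutant and 15020 and 13080 CPM in the females.

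For radial glia, the astrocyte-like stem cells of the fish brain, 27 of 30 genes had ratios above 0, with a median of 0.27. Among all 19943 genes 9821 had ratios above 0. The differences were small: 4 of the 30 were at least 1.5-fold higher and 0 lower, against 7.54% and 7.02% of all genes. Past 2-fold there were 0. Unlike for myelin, the female median was above 0, at 0.15. The summed level was 9344 and 11880 CPM in the males and 9219 and 10450 CPM in the females. Glutamine synthetase, glula, had 16997 and 29537 counts, a ratio of 0.79 [0.76, 0.81], and the filament gene gfap had 1162 and 2109, a ratio of 0.85 [0.74, 0.95]. The transcription factors sox2 and sox9b were on the other side at -0.22 [-0.37, -0.07] and -0.27 [-0.54, -0.02]. Among 34 genes of vessels and pericytes 2 were at least 2-fold higher, against 2.73% of all genes. They were the glucose transporter slc2a1a with 302 and 644 counts and the tight junction gene cldn5b with 64 and 139. In contrast, the endothelial transcription factor erg had 121 and 63.

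Hox genes, which mark the hindbrain and spinal cord, were higher in the male mutant than in the male wild type. Of 18 compared genes 5 were at least 2-fold higher and 0 lower, with a median of 0.76, against 2.73% and 2.4% of all genes. hoxb3a had 114 and 205 counts, a ratio of 0.82 [0.50, 1.18], hoxa4a had 32 and 93, a ratio of 1.46 [0.93, 2.15], and hoxa5a had 5 and 26. The female median was 0.06. The male wild type was the lowest library for 14 of the 18 genes and the male mutant was the highest for 0. They summed to 38.3 CPM in wild type males, 64.4 CPM in mutant males, and 81.1 and 81.6 CPM in the females, so it was the male wild type library that stood apart. How far back each brain was cut is not given in the sources used here.

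**Figure D4:**
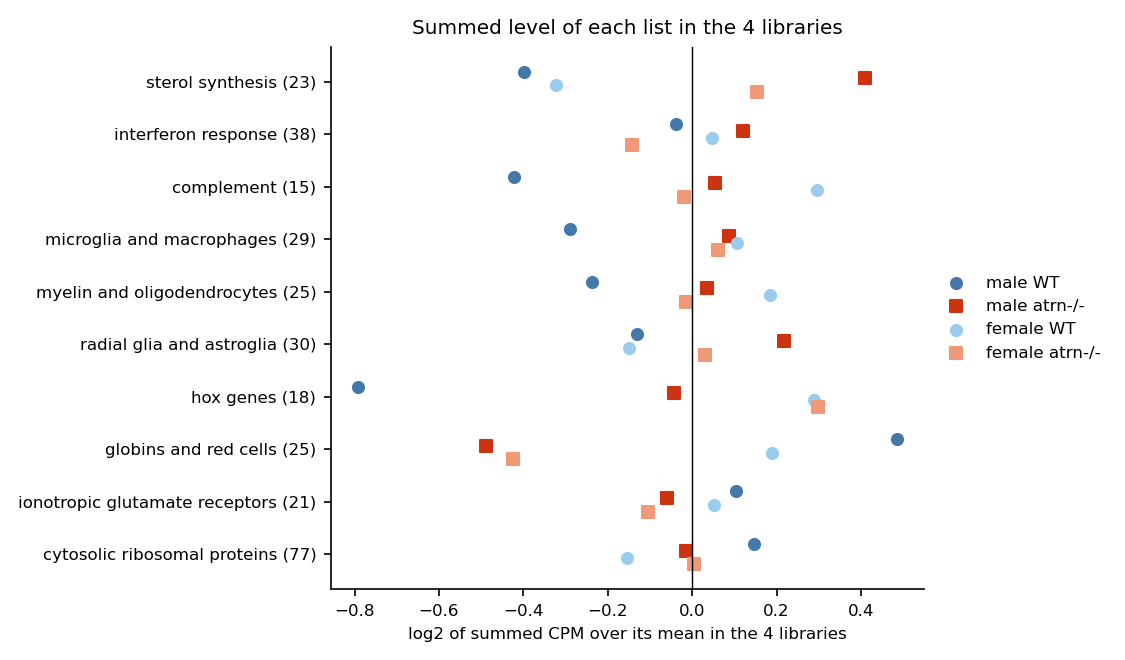
Summed CPM of each list in the 4 libraries, as log2 over its mean in the 4 libraries; circles are wild type, squares atrn-/-, dark symbols males, pale symbols females. The male wild type lies lowest for sterol synthesis, complement, microglia, myelin and hox genes and highest for red cell, glutamate receptor and ribosomal protein genes.

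Neuronal genes differed little in bulk: 47 markers of neurons and synapses summed to 18590 and 18840 CPM, and 0 of them were 2-fold higher or lower. Ionotropic glutamate receptors carry fast excitatory transmission, and 19 of their 21 subunit genes had ratios below 0, with a median of -0.18. Intervals lay wholly below 0 for 15 of the 21, against 21.3% of all genes, but 0 of the 21 were 1.5-fold lower. The AMPA receptor gene gria2a had 11809 and 9889 counts, a ratio of -0.27 [-0.31, -0.23], and the kainate receptor gene grik5 was lowest at -0.42 [-0.53, -0.31]. The female median was -0.16. Among 23 receptor genes for GABA and glycine, which inhibit neurons, 1 was at least 2-fold higher and 1 at least 2-fold lower. Over all genes the shares were 2.73% and 2.4%. The higher gene was gabrr1 with 9 and 23 counts, which passed the filter only through the male mutant library. The lower gene was gabrr2b with 83 and 32.

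Among 53 neuropeptide and secretory granule genes 1 was at least 2-fold higher and 3 at least 2-fold lower, with a median of 0.02. These numbers stand beside 2.73% and 2.4% of all genes. The appetite peptide agrp, an antagonist of the melanocortin receptor, had 19 wild type and 2 mutant counts, with an interval from -6.41 to -1.21, but 7 and 28 in the females. However, agrp passed the filter only through the male wild type library, so its being lower follows in part from the filter. Its relative agrp2, which in zebrafish is made in the pineal organ, went the other way in the males with 91 and 212 counts, a ratio of 1.19 [0.85, 1.58], and 61 and 128 in the females. pmchl, a melanin-concentrating hormone gene, had 320 and 133 counts, a ratio of -1.26 [-1.58, -0.98], against 91 and 308 in the females. In the list of 13 melanocortin and attractin genes agrp2 and agrp were the only ones past 2-fold, and the median was -0.08. The granule proteins scg2b and chga were level, with 9660 and 9380 counts for the former.

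Those steroid hormone genes that could be compared were near the background. Of 26 genes 1 was at least 2-fold higher and 0 lower, with a median of -0.03, against 2.73% and 2.4% of all genes. The other 8 of the 34 listed genes in the table did not pass the filter, and their highest male count was 10. Among these were cyp11a1, cyp11a2, cyp17a2, cyp19a1a, hsd3b1, hsd17b1 and hsd17b2, so a change in these enzymes could not be judged. Brain aromatase cyp19a1b, which makes estrogen from androgen in radial glia, had 12891 and 12060 counts, a ratio of -0.11 [-0.14, -0.07]. The membrane estrogen receptor gper1 had 23 and 55 counts, and the translocator protein gene tspo had 286 and 173. Named after its values were seen, the androgen receptor ar had 580 and 552 counts.

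Genes that respond to glucocorticoids were mixed, with a median of 0.03 and 1 of 21 at least 2-fold higher, against 2.73% of all genes. That gene was hsd11b2, which inactivates cortisol, with 231 wild type and 808 mutant counts, a ratio of 1.78 [1.58, 2.01], against 240 and 394 in the females. The receptor chaperone fkbp5 had 7365 and 11879 counts, a ratio of 0.68 [0.64, 0.72], and the transcription factor klf9 had 1037 and 1841, a ratio of 0.81 [0.71, 0.93]. In contrast tsc22d3 was at 0.14 [0.08, 0.19]. Of 32 activity-induced genes 2 were at least 2-fold lower and 0 higher, against 2.4% and 2.73% of all genes. The nuclear receptor nr4a3 had 1410 and 685 counts, a ratio of -1.05 [-1.19, -0.92], and fosl1b had 35 and 8. The latter passed the filter only through the male wild type library, so its being lower follows in part from the filter. Other activity genes such as npas4a and egr1 lay at 0.17 [0.11, 0.22] and 0.21 [0.13, 0.29].

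Lists of abundant housekeeping genes differed by small amounts. Of 77 ribosomal protein genes 71 had ratios below 0 and 62 had intervals wholly below 0, with a median of -0.17. Among all genes 21.3% had intervals wholly below 0 and 20.3% wholly above 0. Of the 77 genes 0 were 2-fold lower, and the female median was 0.12. The male wild type held the highest CPM of the 4 libraries for 60 of the 77. rplp0 had 16621 and 14052 counts, a ratio of -0.25 [-0.29, -0.22], and rps28 was lowest at -0.68 [-0.83, -0.54]. Respiratory chain subunits, which make ATP in mitochondria, had a median of 0.17 over 84 genes, with intervals above 0 for 51 and below 0 for 14. They ranged from ndufb1 at -1.13 [-1.51, -0.80] to sdhda at 0.80 [0.60, 1.00]. Tubulins, the subunits of microtubules, had a median of 0.26 over 17 genes, with tuba1b highest at 2137 and 4334 counts and 908 and 2721 in the females.

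The largest single differences lay in few genes. loxl2b, a lysyl oxidase that cross-links collagen and elastin, had 39 wild type and 2879 mutant counts, 73.2-fold more by CPM, a ratio of 6.11 [5.74, 6.69]. In the females it had 349 and 1193 counts. The male wild type library was thus far below the other 3. efemp2b, a fibulin that helps assemble elastic fibres, had 2067 and 165 counts in the males and 505 and 111 in the females, a male ratio of -3.64 [-3.90, -3.43]. The other 20 elastic fibre and lysyl oxidase genes were less extreme. Of all 22, 3 were at least 2-fold higher and 2 at least 2-fold lower, against 2.73% and 2.4% of all genes. The filter was passed by 1 of the 22 only through the male mutant library. The lysyl oxidases loxl3a and lox were past 2-fold in opposite directions, with 17 and 65 counts for loxl3a and 37 and 17 for lox. Elastin elna was at 0.19 [0.04, 0.34].

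The genes fibpb and fosl1b lie within 2 compared genes of efemp2b in the order of the RefSeq annotation (assembly GRCz12tu), and all 3 were at least 2-fold lower in the male mutant. fibpb had 733 and 90 counts in the males, a ratio of -3.0 [-3.37, -2.72], and 282 and 67 in the females. fosl1b had 3 and 5 counts in the females and passed the filter only through the male wild type library. The kit did not mark strand, so reads of any overlapping neighbours could not be separated. Whether these genes overlap was not tested. exorh also had a neighbour, ift122, within 2 compared genes that was at least 2-fold higher. ift122 had 3 and 25 counts in the males but 15 and 6 in the females. It passed the filter only through the male mutant library.

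Several leading genes were close to present in one library and absent in another. LOC101885164, annotated as death-associated protein-like 1-B, had 951 wild type and 5 mutant counts, a ratio of -7.02 [-9.21, -6.36], and 479 and 163 in the females. LOC101883308, annotated as a homologue of paraneoplastic antigen Ma1, had 195 and 0 counts in the males, at least 65.5-fold lower against 3 counts, and 98 and 0 in the females. LOC101884127 had 100 and 0 counts in the males and 27 and 1 in the females, and passed the filter only through the male wild type library. In the other direction LOC101882487 had 1 and 155 counts in the males and 0 and 103 in the females, ccbl2, a cysteine conjugate lyase, had 3 and 120 against 1 and 96, and LOC799802, annotated as stonustoxin subunit beta-like, had 0 and 51 against 0 and 72. These 6 genes split the 4 libraries by genotype. So did the protocadherin cluster gene pcdh2ab6, a neuronal adhesion molecule, with 210 and 1564 counts, a ratio of 2.87 [2.68, 3.1], against 95 and 266 in the females.

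Others split them otherwise. LOC100536995, annotated as RIIa domain-containing protein 1-like, was counted 0 times only in the male wild type, with 221 counts in the male mutant and 524 and 234 in the females, so its value, at least 73.1-fold higher, rests on the wild type library. LOC103911138 was counted 44 times in the male wild type and 0 times in the other 3 libraries. It passed the filter only through the male wild type library, so its being lower follows from the filter. Of the 544 genes at least 2-fold higher in the male mutant, 399 had their lowest CPM in the male wild type. For 345 of them the highest CPM was in the male mutant. Among all 19943 genes these numbers were 5220 and 4250. The ranks of the 544 follow in part from their being chosen as higher in the male mutant. Over all compared genes 670 (3.36%) were at least 2-fold higher and 892 (4.47%) at least 2-fold lower in the female mutant. In the females 130 of the 544 were at least 2-fold higher, 48 at least 2-fold lower and 366 within 2-fold. Of the 478 lower genes 156 were at least 2-fold lower in the females, 54 at least 2-fold higher and 268 within 2-fold.

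**Figure D5:**
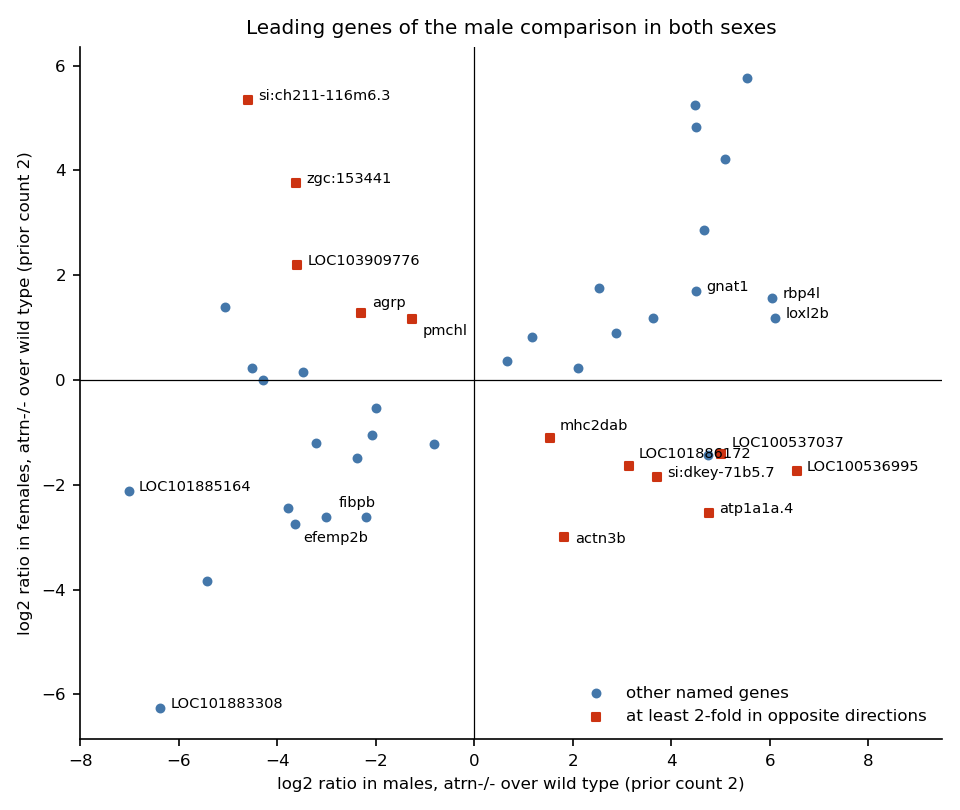
Log2 ratio of the leading genes in males (horizontal) and females (vertical), atrn-/- over wild type; each point is 1 gene and red squares are genes at least 2-fold apart in opposite directions. loxl2b, rbp4l and gnat1 lie in the upper right and efemp2b, fibpb and LOC101883308 in the lower left, while si:ch211-116m6.3 and LOC100536995 lie in opposite corners.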

How the data were processed

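Total RNA of each brain sample was extracted with TRIzol and sequenced on libraries made with an Illumina TruSeq RNA kit. The authors deposited 1 table of raw gene counts for 4 libraries. The submitters' processing notes name HISAT2 and the build GRCz10, the methods name MapSplice for alignment, and the counting program is not given in the sources used here. Counts were scaled with TMM factors (edgeR 4.0.16, R 4.3.3) over the 4 libraries. A gene needed 10 counts on average per library, and log2 CPM ratios took a prior count of 2. Intervals are exact Clopper-Pearson intervals (95%) of the share of counts that the mutant held (scipy 1.17.1), rescaled by library size; they cover counting error only. Against 0 counts a floor of 3 counts was used. Both scripts for ratios and intervals were tested on simulated data. Genes were named by rule: atrn, cyp51 and hsd17b7; the 12 highest and 12 lowest ratios; the 8 highest and 8 lowest with a male mean of at least 200 counts; and in each of the 28 lists discussed the 4 most abundant, 2 highest and 2 lowest. The members and lists were chosen with earlier results of these data known, and kinases and other genes caught by the name patterns for ribosomal proteins and tubulins were removed after values were seen. RefSeq order was used for 17456 of the 19943 genes by name, and no coordinates or sequences are given, because the annotation's build differs from that of the files. Alternatives were other scalings (total counts, DESeq2 1.42.0 size factors, TMM over the 2 male libraries), prior counts of 0.5 and 5, and other filters and thresholds. Promoter motifs were not analysed here.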

Additional observations from a re-analysis of the deposited data

Results flagged for a closer look

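Among the named genes 12 were at least 2-fold apart between genotypes in the males and at least 2-fold in the opposite direction in the females, with both counting intervals leaving out 0. The difference between the sexes was not tested, since each group has 1 library.

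Lower in the male mutant and higher in the female mutant were si:ch211-116m6.3 (-4.59 in the males and 5.34 in the females), zgc:153441 (-3.62 and 3.76), LOC103909776 (-3.59 and 2.19), agrp (-2.30 and 1.27) and pmchl (-1.26 and 1.17). The first of these was counted 318 times in wild type males and 258 times in mutant females, but 11 and 3 times in the other libraries. zgc:153441 showed the same arrangement with 112 and 105 counts against 7 and 4. The gene agrp passed the filter only through the male wild type library.

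Higher in the male mutant and lower in the female mutant were mhc2dab (1.53 and -1.12), actn3b (1.83 and -2.99), LOC101886172, annotated as protocadherin gamma-C5-like (3.13 and -1.65), si:dkey-71b5.7 (3.70 and -1.85), atp1a1a.4 (4.77 and -2.54), LOC100537037 (5.02 and -1.40) and LOC100536995 (6.55 and -1.73). atp1a1a.4, a sodium pump subunit, had 3 and 145 counts in the males and 18 and 3 in the females, and passed the filter only through the male mutant library. si:dkey-71b5.7 had 84 and 1132 counts in the males and 1851 and 765 in the females, so the male wild type alone was low. For actn3b the muscle genes of the female wild type library stand beside the value, with a summed 8226 CPM against 1335 CPM in wild type males.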

How the results depend on the processing

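Scaling changed little: with total counts, DESeq2 size factors or TMM over the male libraries alone the counts of genes at least 2-fold higher and lower were 544 and 482, 553 and 469, and 550 and 509, and the median of all genes stayed between -0.009 and 0.003. Prior counts of 0.5 and 5 gave 626 and 550, and 435 and 376. The filter and the threshold moved the counts further. With at least 1 count in a male library as the only filter they were 1348 and 1245, with 50 counts on average per library 134 and 163, at 1.5-fold 1503 and 1400, and 180 and 145 where the interval's bound nearest to 0 had to pass 2-fold. The share of higher genes among them was 45.1% at a mean of 50 counts, against 53.2%. The rod and cone phototransduction median was 1.33 with no filter and 1.27 at a mean of 50 counts. For photoreceptor structure and transcription the median turned to -0.0387 at a mean of 50 counts; the cause was not tested. The other 200 recomputed medians, that of all genes included, stayed between the medians of their genes' lower and upper counting bounds, and atrn stayed within its interval under 5 alternatives. Recomputed ratios of named genes stayed within their intervals in 1191 cases and moved outside in 14, each with a prior count of 5 and each in a gene with 0 to 2 counts on one side.

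No paired analysis was possible because each group has 1 library, and for the same reason no library was left out. Counting intervals do not cover variation between fish, dissection or library preparation, and whether the differences exceed that variation was not tested. Ratios of genes with few counts depend on the prior.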

Other observations

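Further gene lists were summarised in the same way. Of 42 compared circadian clock genes 0 were at least 2-fold higher or lower, with a median log2 ratio of 0.04. The shares of all genes were 2.73% and 2.4%. The 43 genes of cell cycle and replication also had 0 past 2-fold, with a male median of 0.21 and a female one of 0.54. Among 37 genes of the integrated and endoplasmic reticulum stress responses 1 was at least 2-fold higher in the male mutant, the cystine transporter slc7a11, with 19 and 47 counts (9 and 74 in the females). The list median was 0.05 for males and 0.38 for females. Of 28 hypoxia genes 6 were at least 1.5-fold higher and 1 at least 1.5-fold lower, against 7.54% and 7.02% of all genes. Their median was 0.04. The glucose transporter slc2a1a had 302 and 644 counts, and the insulin-like growth factor binding protein igfbp1a had 815 and 345, against 321 and 585 in the females. The 17 choroid plexus and ependyma genes summed to 317 and 481 CPM in the males and 318 and 356 CPM in the females. The 10 genes of lipid transport summed to 398 and 562 CPM against 441 and 434 CPM. Both lists hold the gene clu, so their sums are not separate results. The male medians were small, at 0.12 and 0.13, and 0 genes of either list were past 2-fold in the males. For 35 glycolysis genes the male median was 0.17 and the female one -0.15. Of 44 collagen genes, 10 were at least 1.5-fold lower and 2 at least 1.5-fold higher in the male mutant (7.02% and 7.54% of all genes), with a median of -0.06. Genes given here were named after their values were seen.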
